A study of Rattus norvegicus with 6 samples.

Results

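Glycolytic enzyme genes were followed in rat kidney cells exposed to streptozotocin (STZ). They were 10 in number, namely Hk1, Hk2, Gpi, Pfkl, Pfkm, Pfkp, Aldoa, Pgk1, Pkm and Ldha. They were taken by gene symbol from the deposited count table, where the 10 genes filled 11 of 18930 rows because Aldoa was listed in 2 rows. The cells were NRK-52E, an established rat kidney epithelial line, labelled wild type in all samples. RNA was sequenced from 3 samples treated with STZ at 10 mM for 24 h and 3 Control samples, which the study describes as given vehicle. STZ, a nitrosourea carried on a glucosamine, alkylates DNA and was dissolved in dimethyl sulfoxide in the cell experiments. The model is a single immortal line in culture. No source used here says whether the samples were separate cultures, so p-values measure only the spread between these samples.

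Glycolysis splits glucose into pyruvate in the cytosol and yields ATP without oxygen. Hexokinase traps glucose in the cell, phosphofructokinase makes the committed step, phosphoglycerate kinase and pyruvate kinase produce ATP, and lactate dehydrogenase converts pyruvate to lactate while regenerating NAD. In the intact kidney, proximal tubule cells depend mainly on fatty acid oxidation and make glucose, whereas epithelial lines in culture use glycolysis freely. Several of these genes are known targets of HIF-1 and MYC, of which HIF-1 binds sites with ACGTG and MYC binds the E-box CACGTG, and of SP1, which binds the GC box GGGCGG.

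Total counts lay between 10430924 and 15191349 per sample, and library scaling factors (edgeR's TMM method) between 0.988 and 1.02. Levels are given as CPM, the reads of a gene relative to the total of its library after this scaling. No transcript lengths were used, so levels are compared between samples and not between genes. As for the cell label, the epithelial markers Krt8 and Tjp1 were abundant, but Cdh1 had 16 to 35 reads per sample and Krt18 had 0 to 3. The summed level of the 5 epithelial markers in the table was 1706 to 1793 CPM in Control and 2285 to 2291 CPM in STZ, most of it Krt8 (log2 fold change 0.48, edgeR adjusted p = 1.8e-15). Of 5 proximal tubule markers, Lrp2, Cubn, Slc34a1 and Slc5a2 had 10 reads or fewer in each sample, and Aqp1 had 113 to 167 reads in Control and 66 to 81 in STZ (log2 fold change -1.25, edgeR adjusted p = 9.4e-09). The summed level of 6 fibroblast markers found in the table, carried by Col3a1, Col1a1 and Pdgfrb, was 99.6 to 111 CPM in Control and 56.1 to 66.7 CPM in STZ, while that of 5 immune markers stayed at or below 2.83 CPM. Of 5 endothelial markers only Vwf passed the filter, with 6 to 36 reads per sample and a log2 fold change of -1.15 (edgeR adjusted p = 0.00129). The part of these shifts in the results was not tested. Fewer cells of a kind and less RNA per cell cannot be told apart in such samples.

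Enzyme genes of the pathway changed in both directions with STZ. Transcripts of both hexokinases (Hk1 and Hk2), of pyruvate kinase (Pkm) and of lactate dehydrogenase A (Ldha) rose, whereas those of phosphoglucose isomerase (Gpi), the phosphofructokinases Pfkl and Pfkm and phosphoglycerate kinase (Pgk1) fell. Of the 10 rows that passed the filter on low counts, 4 were higher and 4 lower in STZ when the threshold was an adjusted p of 0.05 (quasi-likelihood test of edgeR, Benjamini-Hochberg adjustment across every gene tested), and the 2 rows of Aldoa did not pass. Pfkp did not pass the filter. The changes were small. None of the 10 rows reached the absolute log2 fold change of over 1 that the study also required, and the largest was a fall of 32.0% in Pfkl. Among all 11870 genes tested, 50.9% passed the same adjusted p-value, 25.9% as higher and 25.1% as lower, and 3.37% also passed the fold-change threshold. The median log2 fold change was -0.22 over the 10 rows and -0.0055 over all genes tested.

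The promoters of the gene with the largest rise (Hk2), of the gene with the largest fall (Pfkl) and of Ldha, which held all the motifs searched, are shown from RefSeq (GRCr8, 250 bases before to 50 after the start). The counts were made on another build, Rnor6. Capitals mark ACGTG and the longer CACGTG, and also GGGCGG, on either strand, and CACGTG contains ACGTG on both strands.
Hk2, chr4:116841226-116841525, minus strand: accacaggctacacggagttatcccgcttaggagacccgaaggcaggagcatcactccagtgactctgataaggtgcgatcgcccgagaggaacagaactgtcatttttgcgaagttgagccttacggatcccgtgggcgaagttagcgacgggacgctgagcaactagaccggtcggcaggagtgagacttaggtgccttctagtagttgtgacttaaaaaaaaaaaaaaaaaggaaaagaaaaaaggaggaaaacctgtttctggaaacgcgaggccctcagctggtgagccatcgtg
Pfkl, chr20:10663715-10664014, plus strand: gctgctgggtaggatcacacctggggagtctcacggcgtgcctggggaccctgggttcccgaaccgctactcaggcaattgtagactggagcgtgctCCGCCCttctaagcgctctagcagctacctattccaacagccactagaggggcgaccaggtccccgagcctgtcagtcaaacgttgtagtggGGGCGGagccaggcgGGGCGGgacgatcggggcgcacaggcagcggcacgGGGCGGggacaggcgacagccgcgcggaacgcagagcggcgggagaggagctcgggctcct
Ldha, chr1:106507842-106508141, plus strand: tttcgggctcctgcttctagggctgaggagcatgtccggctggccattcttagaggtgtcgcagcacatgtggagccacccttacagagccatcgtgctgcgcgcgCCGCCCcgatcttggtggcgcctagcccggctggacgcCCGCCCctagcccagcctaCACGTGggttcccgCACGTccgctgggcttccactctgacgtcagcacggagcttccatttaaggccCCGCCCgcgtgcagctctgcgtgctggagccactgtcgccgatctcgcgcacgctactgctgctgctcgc

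RefSeq held 12 promoters for 9 of the 10 genes, and Pgk1 had no entry. ACGTG was found in 5 of these 12 promoters, CACGTG in 1 and GGGCGG in 7, against 19.3%, 6.42% and 33.1% of all 33469 promoters of this length. The share of G and C in the 12 promoters ran from 50.3% to 69.3%, against a median of 51.7% over all promoters. Its part in these counts was not tested. Counted from 1 at the 5′ end, CACGTG began at base 164 of the Ldha promoter, and a further ACGTG on the minus strand began at base 178. The Pfkl promoter held GGGCGG at 4 places, from base 98 to base 240, and no ACGTG. The Hk2 promoter held none of these letters. These matches are letters in a window and say nothing of binding.

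Hexokinase phosphorylates glucose at the entry to the pathway, Hk1 being the broadly expressed form and Hk2 the form induced in growing cells. Hk2 had 33.9, 38.7 and 45.1 CPM in Control and 48.5, 50.5 and 46.8 CPM in STZ. The groups did not overlap, but the lowest STZ sample lay close to Control replicate 3. Its log2 fold change was 0.30 (standard error, SE, 0.07, edgeR adjusted p = 4.8e-04). Hk1 had 110, 109 and 119 CPM in Control and 122, 126 and 128 CPM in STZ, also without overlap. Its log2 fold change was 0.15 (SE 0.05, edgeR adjusted p = 0.00601). The ratio of Hk2 to Hk1 reads within a library was 0.308 to 0.378 in Control and 0.365 to 0.401 in STZ, so the groups overlapped. The log2 ratio differed by 0.17 (two-sided exact permutation p = 0.2, and 0.25 after Benjamini-Hochberg adjustment over 5 ratios), where 3 samples against 3 allow no p below 0.1. With 1 sample left out the difference was 0.0834 to 0.229, lowest without Control replicate 1. In the GRCr8 annotation Hk1 overlaps 2 long non-coding RNAs, and whether counting used strand is not given in the sources used here.

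Gpi encodes phosphoglucose isomerase, which turns glucose 6-phosphate into fructose 6-phosphate. It had 715, 708 and 713 CPM in Control and 594, 607 and 589 CPM in STZ. All Control samples lay within a narrow band above the STZ samples, with means of 712 ± 3.41 and 597 ± 9.28 CPM (SD, n = 3 each). The log2 fold change was -0.25 (SE 0.03, edgeR adjusted p = 4.7e-08).

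Phosphofructokinase 1 catalyses the committed step, and its liver, muscle and platelet forms are encoded by Pfkl, Pfkm and Pfkp. Pfkl had 162, 179 and 193 CPM in Control and 113, 126 and 125 CPM in STZ. Every STZ sample was below every Control sample, although the Control samples were spread widely. The log2 fold change was -0.56 (SE 0.05, edgeR adjusted p = 1.6e-12), and 12% of all genes tested had a larger absolute change. Pfkm had 174, 165 and 160 CPM in Control and 135, 136 and 140 CPM in STZ. The groups were again separate, with a log2 fold change of -0.28 (SE 0.04, edgeR adjusted p = 5.8e-07). In the GRCr8 annotation Pfkm overlaps Senp1, a long non-coding RNA and a tRNA gene, so its reads may not be fully separated from theirs.

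Pfkp had few reads, namely 7, 5 and 9 reads in Control and 10, 13 and 21 reads in STZ. All STZ samples were above all Control samples in CPM, but by a narrow margin at so few reads. Without a filter its log2 fold change was 0.83 (edgeR adjusted p = 0.13). Over the 6 alternatives that tested it the edgeR adjusted p ranged from 0.0386 to 0.23, and it passed only without STZ replicate 1. That sample had the fewest STZ reads, and with it left out the gene could pass the filter through its STZ reads alone. No conclusion is drawn from this pass. Reads of Pfkl divided by those of Pfkm were 0.926 to 1.21 in Control and 0.835 to 0.926 in STZ. The STZ libraries were all lower, the highest of them only just so, and the log2 ratio differed by -0.27 (two-sided exact permutation p = 0.1, the smallest possible with 3 against 3, and 0.167 after adjustment over the 5 ratios). This ratio was chosen after the values were seen. The planned ratios to Pfkp rested on its few reads, and their log2 differences were -1.37 for Pfkl and -1.10 for Pfkm (exact permutation p = 0.1 for each, 0.167 adjusted).

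Aldoa encodes aldolase A, which splits fructose 1,6-bisphosphate. Its first row had 8.77, 7.46 and 8.11 CPM in Control and 5.82, 7.39 and 7.94 CPM in STZ, and its second row had 6.41, 6.55 and 4.99 CPM in Control and 5.16, 4.69 and 4.34 CPM in STZ. The groups overlapped in both rows. Log2 fold changes were -0.20 (SE 0.14, adjusted p = 0.246) and -0.33 (SE 0.17, adjusted p = 0.0943) in the edgeR test. The first row had -0.07 without STZ replicate 1 and -0.31 without STZ replicate 3. The second row passed without Control replicate 3 (edgeR adjusted p = 0.034, with 0.034 to 0.273 over its 16 alternatives). With the reads of both rows added, an alternative chosen after seeing the data, the sample sums were 161, 154 and 168 reads in Control and 151, 139 and 184 reads in STZ, and the log2 fold change of -0.25 passed narrowly (SE 0.11, edgeR adjusted p = 0.0438). Aldolase A has near-identical gene copies, only uniquely mapped reads were counted, and in GRCr8 the gene overlaps a further protein-coding gene, so the level of Aldoa is uncertain.

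Pgk1 encodes phosphoglycerate kinase 1, the enzyme of the first step that makes ATP. It had 939, 962 and 1004 CPM in Control and 833, 820 and 809 CPM in STZ, without overlap. The log2 fold change was -0.24 (SE 0.04, edgeR adjusted p = 2.4e-07).

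Pkm encodes the muscle-type pyruvate kinases, whose M1 and M2 splice forms are not separated by counts per gene. It had 1051, 1071 and 1118 CPM in Control and 1185, 1154 and 1167 CPM in STZ. The groups did not overlap, and this was the smallest change among the 8 that passed in these 10 genes, with a log2 fold change of 0.11 (SE 0.03, edgeR adjusted p = 0.00559). Among all genes tested, 67.6% had a larger absolute change. An unnamed pseudogene overlaps Pkm in the GRCr8 annotation.

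Ldha encodes the A subunit of lactate dehydrogenase, the form that favours lactate production. It had 891, 910 and 973 CPM in Control and 1123, 1118 and 1079 CPM in STZ. The STZ samples all lay above the Control samples, with a log2 fold change of 0.26 (SE 0.04, edgeR adjusted p = 9e-08). Its partner Ldhb, which encodes the heart-type subunit, had only 26 to 45 reads per sample and a log2 fold change of -0.27 (edgeR adjusted p = 0.342), which was -0.05 without STZ replicate 1 and -0.41 without Control replicate 3. The ratio of Ldha to Ldhb reads was 249 to 367 in Control and 339 to 594 in STZ, with overlap and an exact two-sided permutation p of 0.3. The log2 difference of this ratio was 0.55, and 0.30 without STZ replicate 1.

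**Figure D1:**
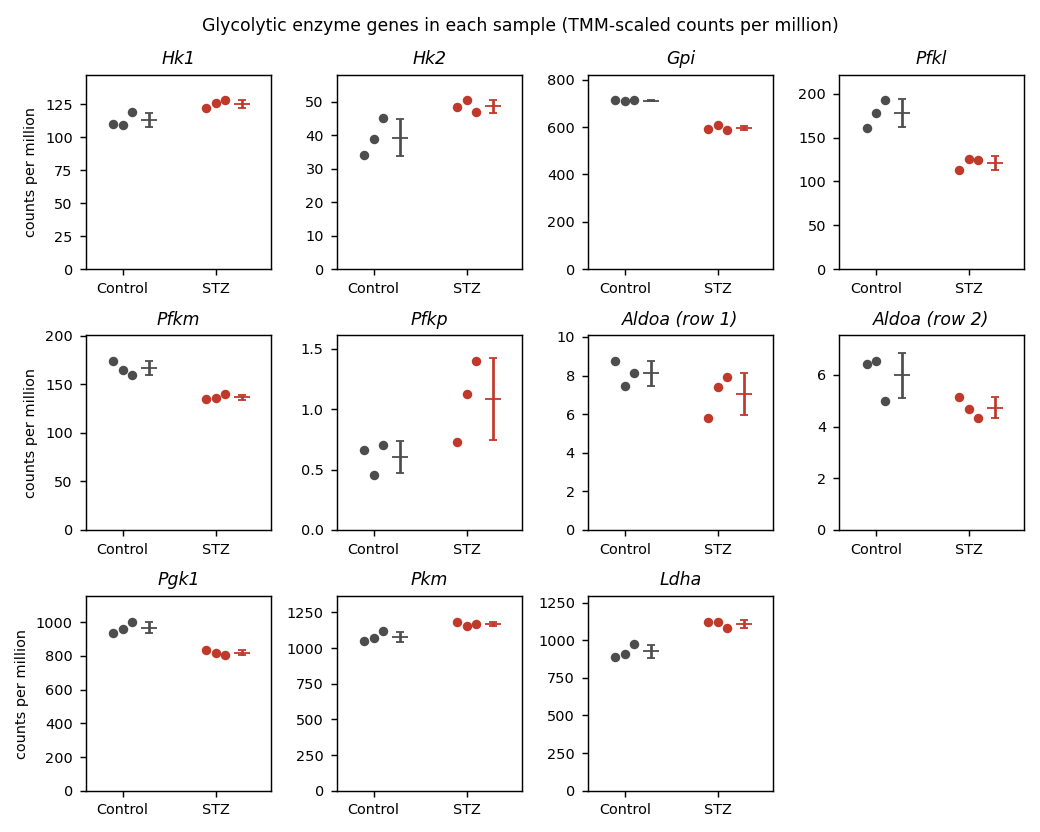
Level of each gene (y axis, TMM-scaled CPM, starting at 0 and with its own range per panel) in the 3 Control samples (grey points) and the 3 STZ samples (red points), with the mean and SD beside them. Hk1, Hk2, Pkm and Ldha lie higher and Gpi, Pfkl, Pfkm and Pgk1 lower in every STZ sample, while both Aldoa rows overlap and Pfkp stays at or below 1.40 CPM.

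Seen over all samples, 4 of the 10 tested rows had every STZ sample above every Control sample and 4 had every STZ sample below, against 28.6% and 27.7% of all genes tested. Control replicate 3 held the highest Control value in 7 of the 11 rows, among them genes that rose (Hk1, Hk2, Pkm and Ldha) and genes that fell (Pfkl and Pgk1). The 10 genes together took 4092, 4158 and 4338 CPM in Control and 4164, 4151 and 4097 CPM in STZ. The sums overlapped, with means of 4196 ± 127 and 4137 ± 35.5 CPM (SD, n = 3 each), so the means differed by less than the SD of Control but by more than the SD of STZ. The log2 difference of the sums was -0.02 and turned to 0.0038 without Control replicate 3.

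Ratios of reads within a library do not depend on library scaling. For 3 pairs of a gene that rose and a gene that fell, chosen after the values were seen, they are given as a description, with no test. Reads of Ldha divided by those of Pgk1 were 0.949, 0.946 and 0.969 in Control and 1.35, 1.36 and 1.33 in STZ. The ratio of Hk2 to Pfkl was 0.210, 0.217 and 0.233 in Control and 0.431, 0.401 and 0.375 in STZ. The ratio of Pkm to Gpi was 1.47, 1.51 and 1.57 in Control and 1.99, 1.90 and 1.98 in STZ. None of the 3 ratios overlapped between the groups, as the choice of a rising and a falling gene fixes.

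**Figure D2:**
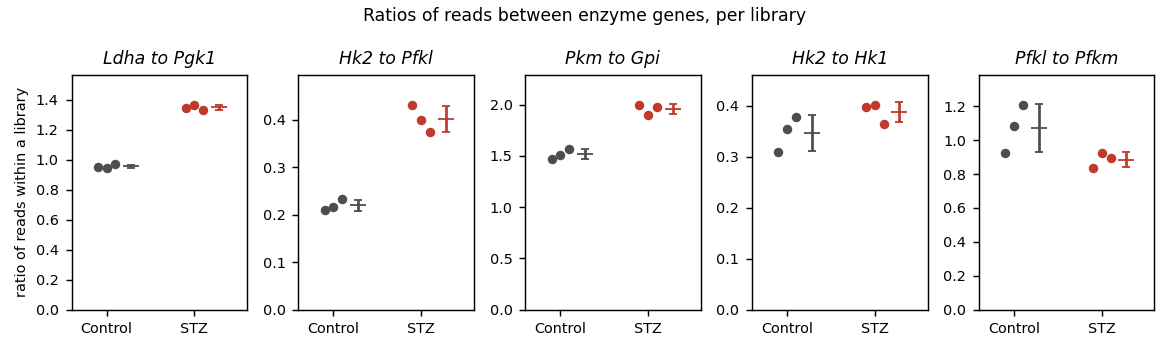
Ratio of reads between a pair of enzyme genes within each library (y axis, no unit, from 0), for 3 Control (grey) and 3 STZ (red) libraries with mean and SD. Ldha to Pgk1, Hk2 to Pfkl and Pkm to Gpi, chosen after the values were seen, are separate between the groups, Hk2 to Hk1 overlaps, and Pfkl to Pfkm is separate by a narrow margin.

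Of 19 further glycolytic enzyme genes, 17 were found in the table and 12 were kept by the filter. At the same adjusted p-value 3 rose and 5 fell, against 25.9% and 25.1% of all genes tested, with a median log2 fold change of -0.11. Tpi1, Gapdh and Pgam1 were among those that fell. Log2 fold changes were -0.22 for Tpi1 (triose phosphate isomerase), -0.11 for Gapdh (glyceraldehyde 3-phosphate dehydrogenase) and -0.21 for Pgam1 (phosphoglycerate mutase), with adjusted p-values of 2.1e-06, 0.0088 and 3.8e-06 in the edgeR test. Gapdh had 1722, 1822 and 1846 CPM in Control and 1663, 1694 and 1646 CPM in STZ, a narrow gap for a gene that is often used as a reference. Eno1, the main enolase of most tissues, had overlapping groups, with 1182 to 1330 CPM in Control and 1115 to 1202 CPM in STZ, and a log2 fold change of -0.12 (edgeR adjusted p = 0.0105). It did not pass without Control replicate 3 (edgeR adjusted p = 0.0896) or without STZ replicate 3 (edgeR adjusted p = 0.118), within a range of 4.2e-04 to 0.118 over its 17 alternatives.

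Among the glycolytic genes tested, Aldoc and Eno2 had the largest changes. Aldoc, the brain form of aldolase, had 14.7, 14.5 and 11.1 CPM in Control and 4.43, 5.13 and 5.54 CPM in STZ, and was the only glycolytic gene tested past the fold-change threshold (log2 fold change -1.40, SE 0.14, edgeR adjusted p = 2.4e-11). Eno2, the neuronal enolase, rose from 47.3 ± 1.05 to 81.6 ± 3.39 CPM (SD, n = 3 each), a log2 fold change of 0.79 (edgeR adjusted p = 4.8e-16). Eno3, the muscle enolase, and Adpgk, an ADP-dependent glucokinase, rose with log2 fold changes of 0.47 and 0.42 (edgeR adjusted p = 1.3e-06 and 1.6e-07). Enolase genes thus moved both ways, with Eno1 lower and Eno2 and Eno3 higher. Bpgm, Pgam2 and Gapdhs had log2 fold changes of 0.07, -0.29 and 0.49 and did not pass (edgeR adjusted p = 0.372, 0.153 and 0.316). Hk3, Pgk2, Pklr and Ldhc had 9 reads or fewer in each sample and were removed by the filter.

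**Figure D3:**
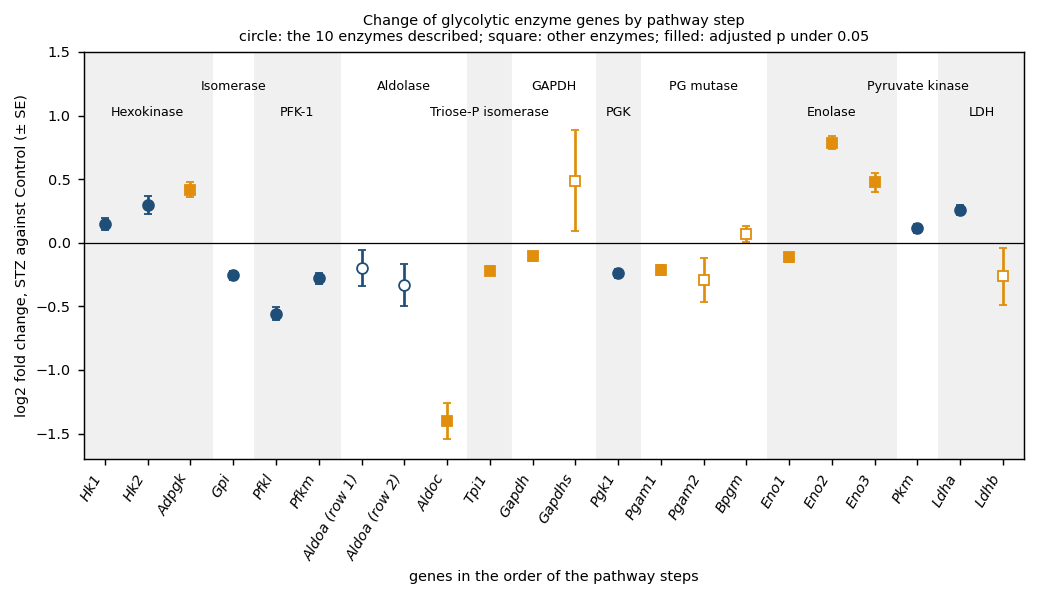
Log2 fold change of STZ against Control with its standard error (y axis) for glycolytic genes in the order of the pathway (x axis, steps named above the points and shaded in turn). Circles are the 10 tested rows of the enzymes described first, with Aldoa in 2 rows and Pfkp not drawn. Squares are the other enzymes, and symbols are filled where the adjusted p-value was under 0.05. Hk1, Hk2, Pkm and Ldha lie above 0, Gpi, Pfkl, Pfkm, Pgk1, Tpi1, Gapdh, Pgam1 and Eno1 below it, and Aldoc lowest at -1.40.

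The level of fructose 2,6-bisphosphate, the main activator of phosphofructokinase 1, is set by the enzymes of the Pfkfb family, and Tigar, a p53 target, removes it. Of these 5 genes, all passed the filter, 2 were higher and 1 lower, against 25.9% and 25.1% of all genes tested. Tigar had 15.3, 18.9 and 20.5 CPM in Control and 29.1, 24.2 and 27.9 CPM in STZ, a log2 fold change of 0.57 (SE 0.09, edgeR adjusted p = 1.3e-06). Pfkfb3, a form with high kinase activity, rose with a log2 fold change of 0.24 (edgeR adjusted p = 9.9e-04). Pfkfb4 had 11.5, 11.6 and 10.6 CPM in Control and 6.11, 5.65 and 5.94 CPM in STZ, a log2 fold change of -0.92 (SE 0.13, edgeR adjusted p = 1.1e-07). Pfkfb1 and Pfkfb2 had log2 fold changes of -0.11 and -0.07 and did not pass (edgeR adjusted p = 0.326 and 0.588). Genes of the kinase family therefore moved both ways while the gene of the phosphatase rose.

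Downstream of Pkm and Ldha, pyruvate is carried into the mitochondrion or leaves the cell as lactate. Of 19 genes of pyruvate and lactate handling, 18 passed the filter, with a median log2 fold change of 0.0021. Of these, 6 were higher and 5 lower, against 25.9% and 25.1% of all genes tested. The count of higher genes was 3 without Control replicate 3 and 3 without STZ replicate 1. Among all genes, 2850 of 11957 and 2828 of 11934 were higher in these fits, against 3070 of 11870 with all samples. Pc, the pyruvate carboxylase that feeds oxaloacetate, rose from 35.6 ± 1.49 to 52.7 ± 0.992 CPM (SD, n = 3 each), with a log2 fold change of 0.57 (edgeR adjusted p = 2.2e-10). Pdk4, a kinase that inhibits pyruvate dehydrogenase, had a log2 fold change of 1.23 at 15 to 26 reads in Control and 38 to 68 in STZ (edgeR adjusted p = 3.7e-05), and Ldhd, the D-lactate dehydrogenase, 0.58 (edgeR adjusted p = 1.6e-04). Among the genes that fell, log2 fold changes were -0.53 for Pdp2, a phosphatase that activates pyruvate dehydrogenase, -0.39 for Pdk1, another inhibitory kinase, and -0.23 for the lactate transporter gene Slc16a1 (edgeR adjusted p = 7.4e-09, 7.2e-06 and 2.7e-06).

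Of 7 genes of gluconeogenesis, which runs the pathway in reverse, 6 were found in the table and 4 passed the filter. G6pc3, a broadly expressed glucose 6-phosphatase, was higher (log2 fold change 0.47, adjusted p = 2.9e-08) and Pck2, the mitochondrial phosphoenolpyruvate carboxykinase, was lower (-0.41, adjusted p = 3.7e-07 in the edgeR test). Fbp1 and Pck1 had no more than 1 read per sample. Of 17 genes known to respond to hypoxia but outside glycolysis, 13 passed the filter, 5 were higher and 3 lower, against 25.9% and 25.1% of all genes tested, and the median log2 fold change was -0.07. The count of lower genes was 5 with library size only and 5 with upper quartile scaling. Lower genes among all tested numbered 3485 and 3252 under these scalings, against 2976 with TMM. Ddit4, an inhibitor of mTORC1 that is also a p53 target, rose from 66.9 ± 3.09 to 114 ± 5.45 CPM (SD, n = 3 each, log2 fold change 0.76, edgeR adjusted p = 1.2e-16). Bnip3l and Hif1a had log2 fold changes of 0.20 and 0.19, while Vegfa, Egln1 and Kdm3a had -0.47, -0.32 and -0.20 (adjusted p-values from 1.4e-06 to 8.2e-04).

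**Figure D4:**
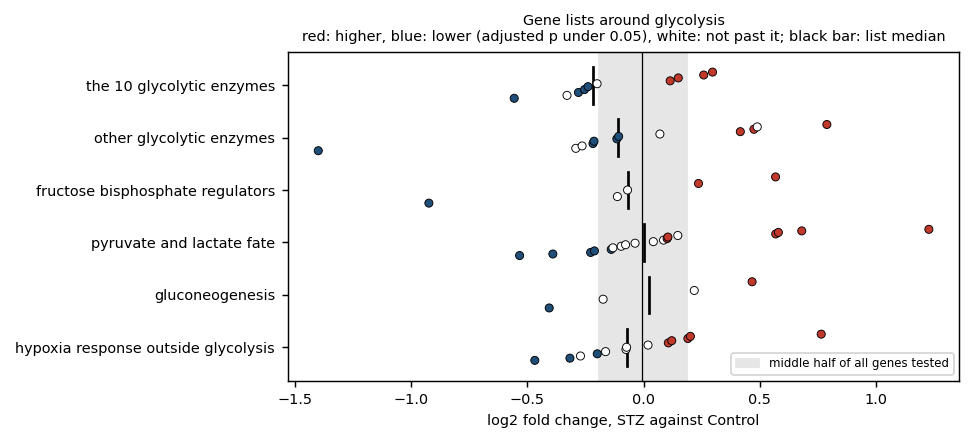
Log2 fold change of STZ against Control (x axis) for the genes of each list that passed the filter (y axis, 1 line of points per list), red where higher, blue where lower and white where the adjusted p-value was not under 0.05. The black bars are list medians, from -0.22 for the 10 tested rows of the glycolytic enzymes to 0.02 for gluconeogenesis. The grey band spans the middle 50% of all genes tested, from -0.19 to 0.19.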

How the data were processed

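RNA of 3 Control and 3 STZ samples of NRK-52E cells was sequenced from stranded mRNA libraries with single-end reads. The deposited raw counts, 1 column per sample, came from alignment by the authors to Rnor6 with STAR 2.7.10a and featureCounts on uniquely mapping reads; its strand setting is not given in the sources used here. Groups and replicate numbers came from the sample titles. The deposited counts were scaled (TMM), filtered (filterByExpr, minimum count 10) and compared with edgeR 4.0.16 in R 4.3.3, by its quasi-likelihood test with adjustment over 11870 genes, in 1 fit of all 6 samples. SEs are the absolute log2 fold change over the square root of the F statistic. Ratios were compared by two-sided exact permutation tests. The 10 genes, the gene lists and the tests were chosen with earlier results of these data known. Named were the 10 genes, all other glycolytic enzymes and fructose bisphosphate regulators tested, and in each further list up to 3 genes with the smallest p per direction. Pcx and Car9 were listed as Pc and Ca9. The fit was tested on simulated counts with 200 of 11870 genes changed and a single dispersion for all genes. In these data 50.9% of genes passed, so that test does not cover data where so many genes change. Alternatives were other filters, scalings, tests (DESeq2 1.42.0, limma-voom of limma 3.58.1, edgeR's likelihood ratio test and glmTreat), thresholds, the replicate block and each sample left out. No pair of samples within a group agreed within sampling noise (lowest chi-square over its degrees of freedom 1.85). The values of 1 further glycolytic gene are not reported here.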

Additional observations from a re-analysis of the deposited data

How the results depend on the processing

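Among the 10 tested rows of the glycolytic enzymes, Pfkl passed in the same direction under all 18 alternatives fitted per gene. The other 7 that passed did so under 17, other scalings included. The median log2 fold change of all genes tested was -0.0391 with library size only and -0.0245 with upper quartile, against -0.0055 with TMM. Pkm and Hk1 passed narrowly in some fits. With library size only their log2 fold changes were 0.08 and 0.12 (edgeR adjusted p = 0.045 and 0.032). Without Control replicate 2 Hk1 had 0.12 (edgeR adjusted p = 0.0464). Those 7 did not pass glmTreat against an absolute fold change of 1.2, where 0 higher and 1 lower genes were left. With a log2 fold change over 1 required as well, 0 were higher and 0 lower. Of all 11870 genes tested, glmTreat left 1091 higher and 862 lower, and the fold-change threshold left 268 and 132. For the other glycolytic enzymes, that threshold left 0 higher and 1 lower, and glmTreat 3 higher and 1 lower. With at least 0.5 CPM in 1 sample, 5 of these enzymes were higher among 14 tested. Fructose bisphosphate regulators numbered 0 higher and 0 lower with the fold change required, and 1 higher and 1 lower with glmTreat. Genes of pyruvate and lactate handling numbered 1 higher and 0 lower with the fold change, 3 higher and 1 lower with glmTreat, and 3 to 5 higher with 1 sample left out. Gluconeogenesis numbered 0 and 0 with the fold change. Hypoxia genes numbered 0 and 0 with the fold change and 1 and 1 with glmTreat, while 5 were lower with library size only and 5 with the upper quartile. Among all genes tested, lower genes numbered 3485 and 3252 under these scalings, against 2976 with TMM. The cause was not tested. The log2 difference of the summed level was -0.039 to 0.0038 with 1 sample left out. Ratios per kilobase were not run, because no transcript lengths were used.

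The labels number the samples 1 to 3 in both groups. Deviations from the group means correlated by 0.0323, -0.0378 and 0.105 between same-numbered samples (10341 genes, not independent of each other), so the numbers were not taken as pairs. With a replicate block, 4 of the 10 tested rows of the glycolytic enzymes were again higher and 4 lower, and the lower hypoxia genes numbered 4 against 3. Lower genes among all tested numbered 3060 with the block, against 2976 without it. Over all single genes named, 716 values kept their call, 20 no longer passed and 2 newly passed. The calls lost were all under glmTreat, apart from Eno1 without Control replicate 3 and without STZ replicate 3. Ranges of adjusted p given for single genes leave out glmTreat, which tests against a minimum fold. Few reads limit what can be said of Pfkp, Aldoa and Ldhb.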

Other observations

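Further genes around pyruvate, chosen after their values were seen, had small changes at the mitochondrial entry. Pdha1 and Pdhb, which encode the paired subunits of the first pyruvate dehydrogenase enzyme, had log2 fold changes of -0.14 and 0.10 (edgeR adjusted p = 0.00267 and 0.0455). The signs were opposite, but Pdhb passed only narrowly. Mpc1, a subunit of the mitochondrial pyruvate carrier, fell from 49.4 ± 2.68 to 42.6 ± 1.62 CPM (SD, n = 3 each, log2 fold change -0.21, edgeR adjusted p = 0.00355), while its partner Mpc2 had a log2 fold change of -0.10 and did not pass (edgeR adjusted p = 0.136). Ca9, the carbonic anhydrase often used as a marker of hypoxia, had 1219, 1262 and 1264 CPM in Control and 1376, 1362 and 1294 CPM in STZ, a log2 fold change of 0.11 (edgeR adjusted p = 0.0102). Bsg, a chaperone of lactate transporters, had a log2 fold change of 0.10 (edgeR adjusted p = 0.0171), and that of its client gene Slc16a1 had the other sign. The genes of this paragraph other than Slc16a1 were not followed singly under the alternative settings. In their list, only 3 genes were higher without Control replicate 3, and 3 without STZ replicate 1. Pc, Pdk4 and Ldhd passed under all 17 alternatives, so neither Pdhb nor Bsg passed in those fits.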
